A study of Mus musculus with 6 samples.

Results

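The primitive streak and mesoderm genes described here are 8 genes chosen by their symbols, T, Eomes, Evx1, Gsc, Mixl1, Cdx1, Mesp1 and Fgf8, taken from a table of 54532 genes. All 8 were found, and 5 of them passed the filter on low values (mean FPKM of at least 0.5 over the 6 libraries). FPKM are fragments divided by gene length in kilobases and by library size. Poly(A) RNA of haploid mouse embryonic stem cells of strain 129SV, which hold a single set of chromosomes, was sequenced from 3 wild-type (WT) libraries and 3 p53-deficient libraries. The titles of the second group read P53ki, its genotype field reads "P53 - haploid", and the study's design speaks of a knockout. Neither a treatment, a differentiation step nor a time point is given for either group, and whether the libraries of a group are separate cultures, lines or clones is not given, so the p-values describe only how far these libraries lie apart, which may reflect technical spread. The design asks how the transcriptomes of the 2 genotypes differ, and the study's title places that question in the return of haploid cells to diploidy during differentiation.

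The primitive streak is the strip of the gastrulating epiblast through which cells leave to form mesoderm and definitive endoderm. WNT and Nodal signals, with BMP4 from the neighbouring extraembryonic tissue, switch on T-box and homeobox factors there, and FGF8 is needed for the cells to move away from it. Undifferentiated embryonic stem cells hold these genes at low levels, and a bulk culture can contain a few cells that have begun to express them. In such bulk samples fewer cells of a type and less RNA per cell cannot be told apart.

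T and Evx1 had the highest ratios of p53-deficient to WT reads among the 8 genes, so the DNA before their start sites is shown. Each window is the 250 bases upstream of the RefSeq start site (build GRCm38.p6, plus strand, 5′ to 3′), chr17:8434173-8434422 for T and chr6:52313248-52313497 for Evx1. Capitals mark a match to one of the words searched on both strands: CTTTGA or CTTTGT for TCF/LEF factors, which act in WNT signalling, AATCCACA or AATACACA for FOXH1, a partner of SMAD proteins in Nodal signalling, and TCACACCT for T-box factors.
T: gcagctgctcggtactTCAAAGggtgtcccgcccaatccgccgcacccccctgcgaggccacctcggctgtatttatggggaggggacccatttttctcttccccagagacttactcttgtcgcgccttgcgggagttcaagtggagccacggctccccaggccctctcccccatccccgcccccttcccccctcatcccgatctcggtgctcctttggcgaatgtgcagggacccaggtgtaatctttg
Evx1: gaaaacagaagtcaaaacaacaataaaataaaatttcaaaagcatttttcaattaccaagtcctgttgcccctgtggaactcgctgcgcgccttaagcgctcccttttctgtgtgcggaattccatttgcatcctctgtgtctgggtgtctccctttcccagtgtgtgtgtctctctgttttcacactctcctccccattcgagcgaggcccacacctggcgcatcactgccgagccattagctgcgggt

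The window of T held 1 match, a TCF/LEF word (CTTTGA) read on the opposite strand, whose first base is base 17 of the window. The window of Evx1 held none, and the complete windows of Gsc and Eomes, which run to 50 bases past the start site, held none either. The complete window of Mesp1 held 3, a TCF/LEF word on each strand and 1 T-box word. Shares were taken over 32851 RefSeq promoter windows of 300 bases, without those of chromosome 18. Of these windows, 31.2% held a TCF/LEF word, 1.82% a FOXH1 word and 1.28% the T-box word, so a TCF/LEF match is common. These matches describe letters in the windows and are not evidence of binding.

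Reads in listed genes numbered from 11536412, in p53-deficient replicate 2, to 21218976, in p53-deficient replicate 1. Trp53, which encodes p53, was at 64.5 to 69.8 FPKM in the WT and at 9.71 to 9.98 FPKM in the p53-deficient libraries. All 9 embryonic stem cell markers were expressed, with a summed level of 3368 to 3426 FPKM in WT and 2488 to 2571 FPKM in p53-deficient libraries. Of these markers 5 were called higher, among them Esrrb (54.4 to 101 FPKM) and Tdh (97.3 to 193 FPKM), and 3 lower, and Dppa5a, the most abundant, went from 2007 to 1075 FPKM. Fibroblast markers, which feeder cells would bring, summed to 1829 to 1840 FPKM in WT and 427 to 450 FPKM in p53-deficient libraries, and 26 of 26 tested were lower. Reads of 4 Y-linked genes, none of them at 0, were 9.84 times lower (95% exact binomial interval 8.04 to 12.2, counting error only). All of these move with the genotype, and their part in the results below was not tested. Trophoblast markers were followed because Eomes is also a gene of that lineage. They summed to 72.4 to 74.5 FPKM in WT and 110 to 112 FPKM in p53-deficient libraries, with 5 of 8 tested higher and 1 lower. The trophoblast factor Elf5, under the filter and not tested, stood at 7 WT and 20 p53-deficient reads. Its depth-adjusted ratio was 3.27 (1.33 to 9.16, counting error only), and its groups overlapped. Endoderm markers summed to 6.42 to 6.61 and 4.82 to 6.43 FPKM, with 1 of 4 tested higher and 3 lower. By the rule for a call given below, 66.5% of all tested genes were called, 35.3% higher and 31.3% lower. The counts of these marker lists, such as the 75% of tested trophoblast markers called, are to be read against that share.

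Of the 5 streak genes tested, 3 were higher in p53-deficient cells (T, Evx1 and Eomes), 1 was lower (Gsc) and 1 did not pass (Cdx1). Here a call means an adjusted p under 0.05 by limma on log2(FPKM + 1), with Benjamini-Hochberg adjustment over all 15144 genes tested. On the same rule 66.5% of all tested genes were called, 35.3% higher and 31.3% lower, and among genes of mean FPKM from 0.5 to 4 the share was 55.9%, and 4 calls in 5 genes cannot be set apart from that background. The groups did not overlap in the same 4 genes, as in 71.4% of all tested genes. Of all tested genes, 37.7% lay above and 33.7% below WT without overlap. The median log2 fold change of the 5 genes was 0.68, and that of all tested genes 0.03. Both values describe only the genes that passed the filter. T passed it only through its p53-deficient level and so had to be higher. With a minimum mean FPKM of 1, T was not tested, and of the 4 members tested 2 were higher and 1 lower. The summed level of the 8 genes was 8.92 to 10.1 FPKM in WT and 11.3 to 11.8 FPKM in p53-deficient libraries.

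**Figure D1:**
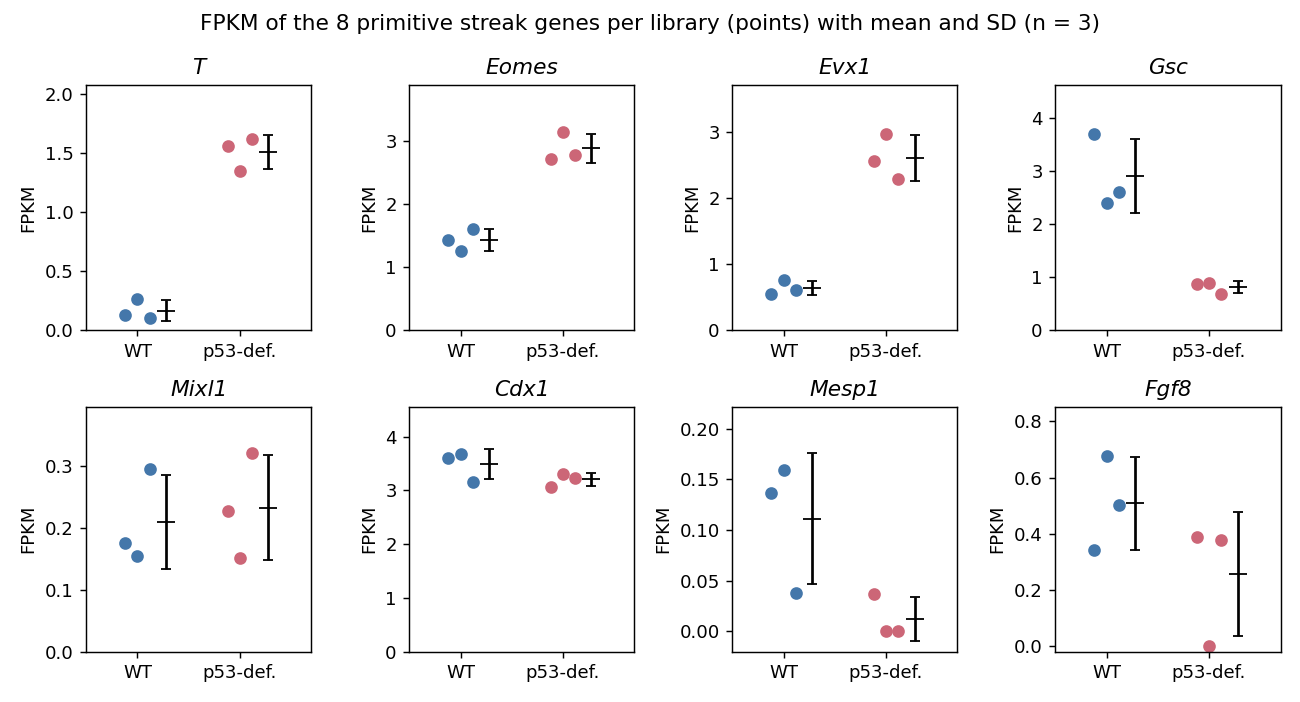
FPKM of the 8 genes (vertical axes, each panel with its own scale) in the 3 WT (blue) and 3 p53-deficient (red) libraries, 1 point per library, with the mean and SD (n = 3) beside them. The points of T, Eomes and Evx1 lie higher in the p53-deficient group without overlap, those of Gsc lie lower without overlap, and those of Cdx1, Mixl1 and Fgf8 overlap. Mesp1 rests on 8 WT reads and 1 p53-deficient read.

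T, or Brachyury, is the T-box factor that defines the streak and is needed for posterior mesoderm and the notochord (chromosome 17, 8434423 to 8442496, plus strand, mm10; ENSMUSG00000062327). It stood at 0.125, 0.263 and 0.105 FPKM in WT and at 1.56, 1.35 and 1.62 FPKM in p53-deficient cells. WT was close to the detection limit and each p53-deficient library lay well above each WT library. Behind these levels were 5, 12 and 5 WT reads and 76, 36 and 66 p53-deficient reads. The mean rose from 0.164 ± 0.0860 to 1.51 ± 0.143 FPKM (SD, n = 3). The log2 fold change was 1.11 (SE 0.0876, limma adjusted p = 4.98e-05). Because 1 was added before the logarithm, that value understates the change of so low a gene: the pooled reads, adjusted for depth, were 9.27 times more frequent in p53-deficient libraries (95% exact binomial interval 5.94 to 15.2, counting error only). Adding 0.1 instead of 1 gave a log2 fold change of 2.65, and voom weights on reads gave 3.21. T passed the filter only through its p53-deficient level, since its WT mean lay under 0.5 FPKM. Its position among 18833 detected protein-coding genes moved from above 25.4% of them in WT to above 47.6% in p53-deficient cells.

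Eomes (eomesodermin), the other T-box gene of the set, acts in streak cells that give definitive endoderm and cardiac mesoderm and also in trophoblast stem cells (chromosome 9, 118478212 to 118486132, plus strand; ENSMUSG00000032446). It stood at 1.42, 1.26 and 1.60 FPKM in WT and at 2.71, 3.14 and 2.78 FPKM in p53-deficient libraries. All p53-deficient libraries lay above all WT libraries, by a smaller factor than for T. The mean rose from 1.43 ± 0.172 to 2.88 ± 0.232 FPKM (SD, n = 3). The log2 fold change was 0.68 (SE 0.0761, limma adjusted p = 0.000266). The 342 WT and 592 p53-deficient reads gave a depth-adjusted ratio of 1.98 (1.73 to 2.27). That interval lies below that of T, and both hold counting error only. Eomes shares 118 bases, 2.84% of its exon length, with the antisense gene Gm33460.

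Evx1, an even-skipped homeobox gene of the posterior streak, lies next to the Hoxa cluster (chromosome 6, 52313498 to 52318378, plus strand; ENSMUSG00000005503). Its levels were 0.543, 0.758 and 0.608 FPKM in WT and 2.56, 2.98 and 2.29 FPKM in p53-deficient libraries. The lowest p53-deficient library was above the highest WT library. The mean rose from 0.636 ± 0.110 to 2.61 ± 0.349 FPKM (SD, n = 3). The log2 fold change was 1.14 (SE 0.0927, limma adjusted p = 5.72e-05). The 106 WT and 370 p53-deficient reads gave a depth-adjusted ratio of 4.0 (3.21 to 5.01). The antisense gene Evx1os, which starts inside Evx1 and runs the other way, had 32 and 76 reads and a ratio of 2.72 (1.78 to 4.25), and it was under the filter and not tested. Only 73 bases, 2.54% of the exon length of Evx1, are shared with it, but the library kit is not stated to keep the strand, so reads there cannot be assigned to one or the other gene.

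Gsc (goosecoid), a homeobox repressor of the anterior streak and organizer that responds to Nodal signalling, went the other way (chromosome 12, 104471209 to 104473330, minus strand; ENSMUSG00000021095). It was at 3.70, 2.40 and 2.60 FPKM in WT and at 0.862, 0.887 and 0.671 FPKM in p53-deficient libraries. WT replicate 1 was the highest library, and every WT library lay above every p53-deficient one. The mean fell from 2.90 ± 0.698 to 0.807 ± 0.119 FPKM (SD, n = 3). The log2 fold change was -1.10 (SE 0.131, limma adjusted p = 0.000355). The 209 WT and 51 p53-deficient reads gave a depth-adjusted ratio of 0.280 (0.202 to 0.381). Without WT replicate 1 the log2 fold change was -0.96.

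Mixl1, a paired-type homeobox gene of the streak and nascent mesendoderm, was hardly detected (chromosome 1, 180693043 to 180697034, minus strand; ENSMUSG00000026497). It stood at 0.177, 0.155 and 0.296 FPKM in WT and at 0.228, 0.151 and 0.321 FPKM in p53-deficient libraries, and the groups overlapped. Each group held 28 reads, a ratio of 1.15 (0.654 to 2.01), so a change of up to about that upper bound could not be seen at this depth. Without the filter its log2 fold change was 0.03 (limma adjusted p = 0.794).

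Cdx1, a caudal-type homeobox gene that sets posterior identity in response to WNT and retinoic acid, had the highest level of the 8 genes in both groups (ENSMUSG00000024619, chromosome 18, 61018862 to 61036199, minus strand). It was at 3.61, 3.68 and 3.16 FPKM in WT and at 3.07, 3.31 and 3.24 FPKM in p53-deficient libraries, and the groups overlapped. The log2 fold change was -0.09 (SE 0.0603, limma adjusted p = 0.226), and the ratio of its 350 and 280 reads was 0.917 (0.781 to 1.08). The call depended on scaling: Cdx1 was called lower after scaling by the median log2 ratio (-0.19, limma adjusted p = 0.0325) and stood at 0.00 after quantile normalization (adjusted p = 0.971).

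Mesp1, a basic helix-loop-helix factor of the earliest cardiac mesoderm, was at the edge of detection (chromosome 7, 79792241 to 79793788, minus strand; ENSMUSG00000030544). It had 3, 4 and 1 WT reads and 1, 0 and 0 p53-deficient reads, or 0.136, 0.159 and 0.0381 against 0.0373, 0 and 0 FPKM. The lowest WT library and the highest p53-deficient library held 1 read each, so the groups parted by depth alone. A count of 0 allows up to 3 reads, which is 0.204 FPKM in p53-deficient replicate 2 and 0.133 FPKM in replicate 3, limits that lie within or above the WT range. The ratio of the pooled reads was 0.143 with an interval from 0.00323 to 1.07. Without the filter its log2 fold change was -0.13 (limma adjusted p = 0.0799).

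Fgf8, the only secreted ligand among the 8, was also low (chromosome 19, 45736798 to 45742915, minus strand; ENSMUSG00000025219). It stood at 0.343, 0.676 and 0.504 FPKM in WT and at 0.387, 0 and 0.378 FPKM in p53-deficient libraries, and the groups overlapped. The 0 was in the shallowest library, where it allows up to 0.192 FPKM. The pooled reads, 40 in WT and 20 in p53-deficient libraries, had a ratio of 0.573 (0.317 to 1.00), and without the filter the log2 fold change was -0.27 (limma adjusted p = 0.253).

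**Figure D2:**
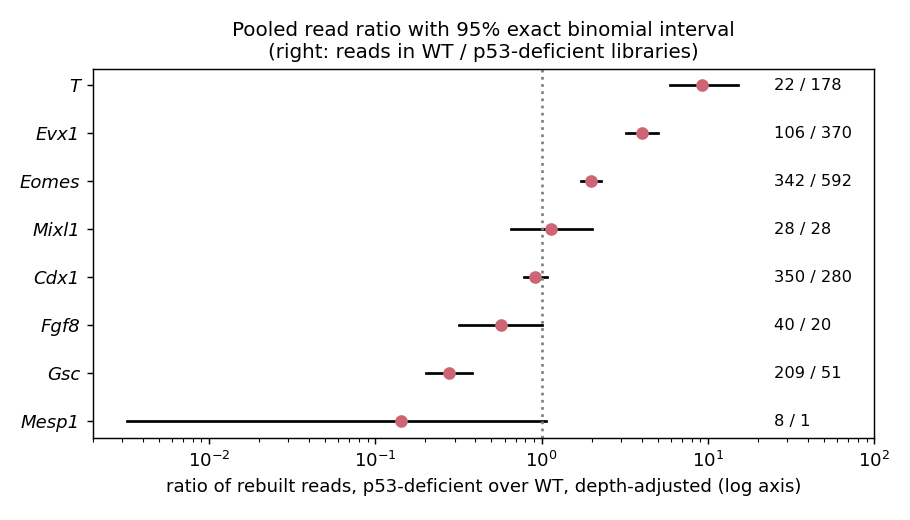
Ratio of rebuilt reads, p53-deficient over WT and adjusted for depth (horizontal log axis), for each of the 8 genes, with the 95% exact binomial interval as a line and the pooled reads of each group at the right. T, Evx1 and Eomes lie above 1 with intervals that do not meet each other, Gsc lies below 1, and the intervals of Mixl1, Cdx1, Fgf8 and Mesp1 include 1. The intervals hold counting error only and leave out the spread between libraries.

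The order of the levels, which FPKM allow to be compared between genes of different length, was not the same in the 2 groups. In WT it ran Cdx1, Gsc, Eomes, Evx1, Fgf8, Mixl1, T and Mesp1. The libraries of Cdx1 and Gsc overlapped there, as did those of Evx1 and Fgf8, of Mixl1 and T, and of T and Mesp1. In p53-deficient cells it ran Cdx1, Eomes, Evx1, T, Gsc, Fgf8, Mixl1 and Mesp1, with overlap between Cdx1 and Eomes, between Eomes and Evx1, and between Fgf8 and Mixl1. T thus stood next to last in WT and at rank 4 in p53-deficient cells, above Gsc in each library of that group. Among the genes with a pattern closest to that of Eomes, the called member of highest mean level, were Zmym5 (distance 0.103 between centred log2(FPKM + 1) values over 6 libraries) and Urb2 (0.11). These distances are a description of 6 libraries and are dominated by the difference between the groups.

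Among 37 genes of the Nodal, BMP, WNT and FGF pathways that act on the streak, 30 were tested, of which 12 were higher, 15 lower and 3 did not pass, with a median log2 fold change of -0.09. The share called, 90% of those tested, is to be read against 66.5% of all tested genes, and the list is no independent test because it was chosen with results of these data known. Of the Nodal pathway, Nodal itself went from 34.5 to 19.4 FPKM (log2 fold change -0.80), and its feedback inhibitors and targets Lefty1 and Lefty2 fell with -4.20 and -3.80. Smad3, which carries the signal to the nucleus, fell from 7.40 ± 0.309 to 1.43 ± 0.112 FPKM (SD, n = 3), whereas Smad2 and the ligand gene Gdf3 were higher, by 0.27 and 0.21. Gsc was lower, as were Nodal, Lefty1, Lefty2 and Smad3, and Eomes was higher, as were Smad2 and Gdf3. A link between the members and these pathway genes was not tested. Foxh1, the DNA-binding partner of the SMAD proteins, was at 36.7 and 39.7 FPKM and did not pass.

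Bmp4 rose further than any other gene of the list. It stood at 1.96, 1.90 and 1.88 FPKM in WT and at 27.3, 26.7 and 26.0 FPKM in p53-deficient libraries (log2 fold change 3.25, limma adjusted p = 1.52e-08). Its receptor gene Bmpr2 fell with -0.76, and Bmpr1a, at 11.8 and 10.9 FPKM, did not pass.

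The WNT genes did not move together. Sp5, a direct target, rose from 0.828 ± 0.123 to 3.47 ± 0.886 FPKM (SD, n = 3), with libraries at 4.32, 2.55 and 3.54 FPKM in the p53-deficient group. Axin2, a feedback inhibitor that is also a direct target, rose with 0.54, and the TCF factor gene Tcf7 with 0.52. Lef1, of the same factor family, had 328 WT and 102 p53-deficient reads (ratio 0.356) without overlap between the groups, and was under the filter and not tested. Of the ligands that act in the streak, Wnt3, at 67 and 8 reads, had no overlap between the groups and was lower in p53-deficient libraries, but it was under the filter and not tested, as was Wnt3a, whose groups overlapped with 27 and 23 reads. Wnt8a fell from 0.950 to 0.265 FPKM (log2 fold change -0.62, depth-adjusted ratio of reads 0.290). It passed the filter only through its WT level and so had to be lower. Ctnnb1, the most abundant gene of the list that did not pass, was at 108 ± 1.30 and 110 ± 1.14 FPKM, but it was called lower, with -0.07, when libraries were scaled by the median log2 ratio.

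Among the FGF genes, Fgf17, a ligand of the same subfamily as Fgf8, rose from 1.35 ± 0.167 to 4.10 ± 0.285 FPKM (SD, n = 3; log2 fold change 1.12). It thus moved apart from Fgf8, whose libraries overlapped. The ligand gene Fgf4 was lower by a small amount (-0.15), and the receptor gene Fgfr1 fell from 22.1 ± 0.375 to 10.5 ± 0.150 FPKM (log2 fold change -1.0).

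Other genes of the streak, node and early mesoderm were mostly under the filter. Of 39 on the list, 24 were not tested. Of the 15 tested 7 were higher, 6 lower and 2 did not pass, with a median log2 fold change of 0.24. The share called was 86.7% of those tested, against 66.5% of all tested genes and 55.9% of those of mean FPKM from 0.5 to 4. Genes that passed only in 1 group had to differ, so these counts are a description. Apela, a peptide hormone of early mesendoderm, rose with 0.90, Tcf15, a factor of paraxial mesoderm that is also active in pluripotent cells, with 0.88, and Kdr, the VEGF receptor of blood and vessel precursors, with 0.75. Nog, which encodes the BMP antagonist Noggin, rose with 0.53. Zic2 fell with -1.39, Fst, which encodes the activin antagonist follistatin, with -0.97, Pdgfra, a receptor of paraxial mesoderm and of fibroblasts, with -0.84, and Gata6 with -0.79. Adding 1 compresses these values for the low genes: by reads, Gata6 had a depth-adjusted ratio of 0.154, Pdgfra of 0.209, Fst of 0.276 and Zic2 of 0.333, while Kdr had 4.63 and Nog 2.41. With a pseudocount of 0.1 the log2 fold change was -2.13 for Gata6, -1.91 for Pdgfra and 1.83 for Kdr. Gata6 and Pdgfra passed the filter only through their WT level and so had to be lower. Kdr passed it only through its p53-deficient level and so had to be higher. Snai1, the factor of epithelial to mesenchymal transition in the streak, was at 4.41 ± 0.0859 and 4.13 ± 0.610 FPKM (SD, n = 3) and did not pass. Of the genes nearest to the mesoderm end of the set, Tbx6 had 40 and 29 reads, Mesp2, the neighbour and relative of Mesp1, had 41 and 31, Lhx1 had 7 and 2, and Msgn1 had none in any library, and the groups overlapped for the first 3 of them. Without overlap, Foxc1 (64 and 8 reads), Foxc2 (41 and 10) and Dll1 (135 and 57) were lower in p53-deficient libraries, and Chrd (92 and 186) was higher. Foxc1, Foxc2, Dll1 and Chrd were under the filter and not tested. Foxf1, with 117 and 24 reads, was called lower, but it passed the filter only through its WT level and so had to be lower. These lists moved in the libraries in which fibroblast markers were lower, and the part of that difference was not tested.

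**Figure D3:**
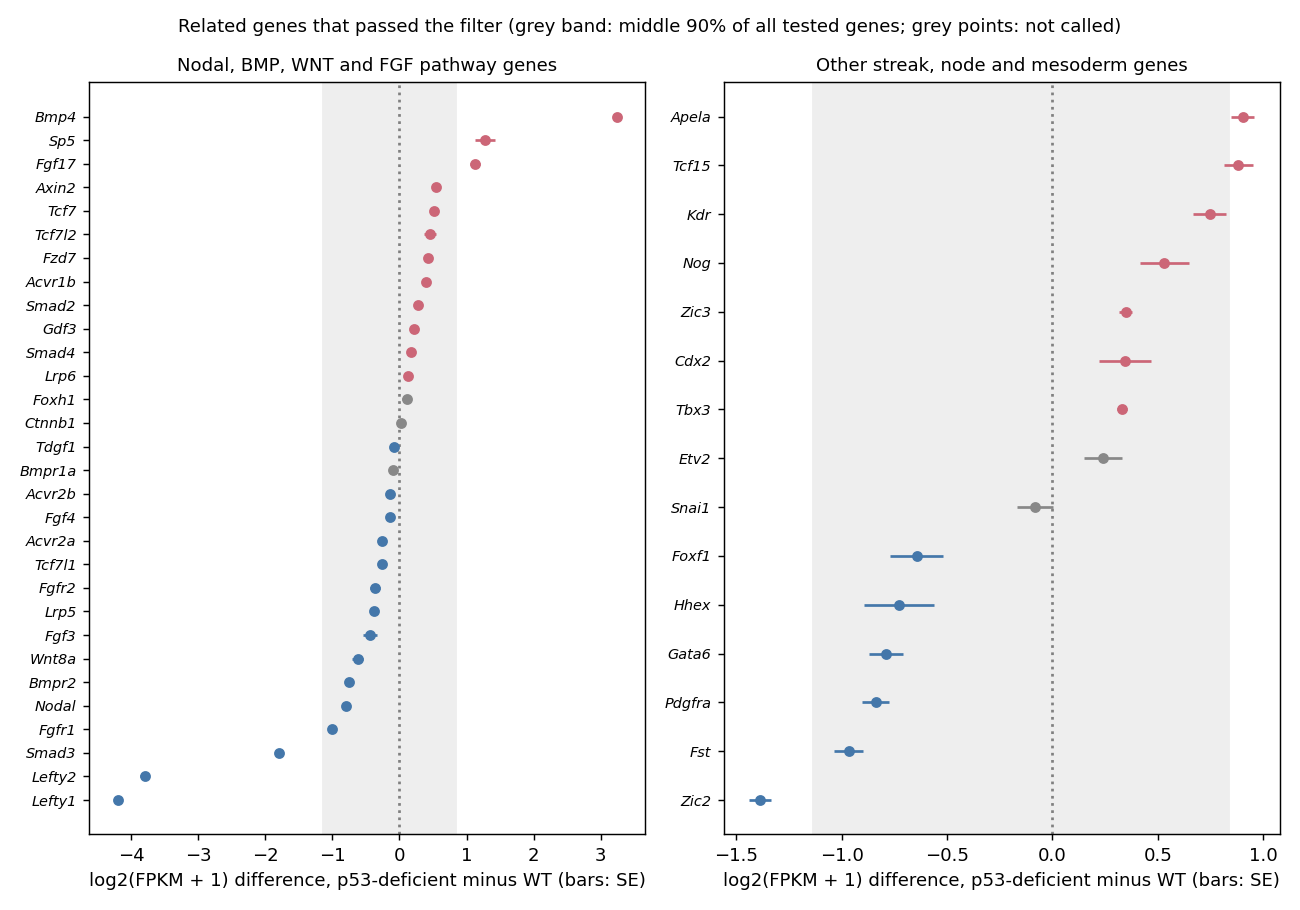
Difference in mean log2(FPKM + 1), p53-deficient minus WT (horizontal axes), with its SE, for the 30 tested pathway genes (left) and the 15 tested streak, node and mesoderm genes (right); red genes were called higher, blue lower and grey not, and the grey band holds the middle 90% of all tested genes (-1.14 to 0.84). Bmp4, Sp5 and Fgf17 lie beyond the band on one side and Lefty1, Lefty2 and Smad3 on the other, and the right panel lies mostly inside it.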

How the data were processed

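RNA was measured in 3 WT and 3 p53-deficient libraries. The deposited values are FPKM per gene and library, made by the authors with HISAT2 2.0.5 and featureCounts 1.5.0-p3 on build mm10, per the submitters' processing notes, which do not give each tool's role. The treatment of reads with more than 1 match is not stated in these sources. FPKM times the deposited gene length was a whole multiple of 1 step per library in 99.98% of values above 0 (tolerance 0.01), so reads were rebuilt, and ratios of reads were adjusted by the library total that the authors' FPKM imply. Depth is in the report. The member coordinates equal those of GENCODE mouse release M21. Promoters came from RefSeq (GRCm38.p6) and matched 5 of 8 members. Windows of chromosome 18, where Cdx1 lies, were left out of the search and of the shares over all windows. Protein sequences were not used here.

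Genes with a mean FPKM of 0.5 or more were put on the log2(FPKM + 1) scale, and limma 3.58.1 (R 4.3.3) compared the groups with a variance trend, on both sides, adjusting by Benjamini-Hochberg over 15144 genes. An exact permutation test of 3 against 3 cannot go below 0.1. The same steps were tested on simulated reads with 50 planted changes of each size. Called in the planted direction were 33 at 1.5-fold, 34 at 2-fold, 42 at 4-fold and 45 at 8-fold. These changes were planted in a small share of 14920 genes, whereas 66.5% of all tested genes were called in the libraries. The adjustment depends on how many genes differ, and recovery at the larger share was not tested. A gene that did not pass may still differ. Date-like symbols, 27 in all, were restored from gene identifiers, and all 145 listed symbols were matched. The members and lists were chosen with earlier results of these data known. The text names the 8 members and, per pathway list, up to 4 largest called rises and falls and the most abundant gene that did not pass. Nodal, Smad2, Gdf3, Foxh1, Bmpr1a, Bmpr2, Tcf7, Wnt3, Wnt3a, Wnt8a, Fgf4, Tbx6, Mesp2, Lef1, Lhx1, Msgn1, Foxc1, Foxc2, Dll1, Chrd, Foxf1, Elf5, Esrrb, Tdh, Dppa5a, Evx1os and Gm33460 were named after their values were seen. The plots were made in Python 3.11.15 using matplotlib 3.10.9. Alternatives are named in the closing section.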

Additional observations from a re-analysis of the deposited data

How the results depend on the processing

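The fit was repeated with quantile normalization, with libraries scaled by their median log2 ratio, with a pseudocount of 0.1, with a minimum mean FPKM of 1 or none, with array weights, without the variance trend, with a replicate block, with voom on rebuilt reads, and without each library in turn. T, Evx1, Eomes and Gsc kept their direction and their call in every one of these in which they were tested; T was not tested at a mean FPKM of at least 1. Their adjusted p had maxima of 0.00106 for T, 0.000503 for Evx1, 0.00278 for Eomes and 0.002 for Gsc. Members called lower numbered 2 after scaling by the median log2 ratio, where Cdx1 joined Gsc, against 1 otherwise. Cdx1 changed sign after quantile normalization (0.002778), and Ctnnb1 changed sign to -0.07 under both scalings (-0.07439 and -0.07203). Streak and mesoderm genes called lower numbered 10 without a filter, where 38 were tested, and 3 at a mean FPKM of at least 1, where 9 were tested, against 6. With each library left out that count lay between 4 and 6. Over all genes, 5761 of 32870 tested were called lower without a filter. At a mean FPKM of at least 1 these were 4063 of 12906, against 4733 of 15144 in the main fit. Of 338 single-gene values under the alternatives, 334 kept direction and call. The other 4 are those of Cdx1 and Ctnnb1, of which Cdx1 with median-ratio scaling and Ctnnb1 under both scalings were called lower (limma adjusted p = 0.0134 and 0.0155 for Ctnnb1). Besides the members, most genes behind the 338 values were picked as the largest calls of the main fit. Their agreement was thus in large part fixed by that choice and is no measure of robustness. For genes that passed the filter in 1 group only, fits that kept the filter also fixed the direction. Replicate numbers do not pair the libraries: same-numbered deviations correlated at -0.0328, 0.0142 and 0.00556, and with the replicate block the members called stayed at 3 higher and 1 lower. Scaling by the median log2 ratio shifted the median of all genes from 0.03 to -0.07. Depth limits Mixl1, Mesp1 and Fgf8, for which 1 read is worth 0.0207 to 0.0679 FPKM.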
